A study of Nothobranchius furzeri with 20 samples.

Results

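The livers described here are those of 27-week-old turquoise killifish (Nothobranchius furzeri), all males of the strain MZM-04/10p, labelled with swim-tunnel exercise, which make up 10 of the 20 RNA-seq libraries of the series. Their sample titles carry 2 separate runs of consecutive numbers, JM132 to JM136 and JM140 to JM144, with 5 libraries in each. The libraries were divided by these title numbers alone, although the comparison itself was chosen with earlier results of these data known. The run with the lower numbers is called the first run and the other the second run, which refers to the numbers and not to time. Strain, sex, age, tissue and exercise label are the same in both, and the labels give no condition, batch or day that separates them. No condition was therefore assigned to either run, and anything that follows the title numbers, biological or technical, cannot be told apart from the run itself. The other libraries, used below only for comparison, came from 9-week-old males of the same strain, 5 with the swim-tunnel label and 5 without exercise. Whether the 5 libraries of a run came from 5 fish is not stated, and p-values therefore reflect only the variation among these libraries, which may be technical.

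The turquoise killifish is an annual fish from seasonal ponds in Africa with a very short adult life, and it is used to study ageing. Its liver, as in other vertebrates, makes most plasma proteins and handles lipids, sugars and foreign compounds. Liver RNA is therefore dominated by a small number of transcripts, and the share these take of a library sets how much room is left for all others. The files used here give no gene names for the deposited identifiers, so the liver label could not be checked against marker genes, and transcripts are described by level, abundance rank, length and behaviour across libraries. The livers were sequenced as bulk tissue, in which fewer cells of a type and less RNA per cell cannot be told apart.

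The 2 runs differed in how their counts were spread over transcripts, while depth and the number of genes detected differed by less than the tests could separate. Total counts were 36.5, 44.6, 33.1, 28.2 and 34.1 M counts (M, mega) in libraries JM132 to JM136, and 29.3, 34.9, 26.5, 29.5 and 24.8 M counts in libraries JM140 to JM144. The means were 35.3 ± 6.01 M and 29.0 ± 3.83 M (SD, n = 5 each; exact permutation test, two-sided, p = 0.0873, adjusted p = 0.109 over 5 library measures). Genes with at least 1 count numbered 20240 ± 300.3 in the first run and 19980 ± 252.7 in the second (SDs over 5 libraries each; exact permutation test, p = 0.19). In each library the 100 transcripts with the most counts held 45.5% ± 5.44 of the counts in the first run and 53.2% ± 0.579 in the second (SD, n = 5 each). All 5 values of the first run were below all 5 of the second (exact permutation p = 0.00794, the smallest that 5 against 5 allows, adjusted p = 0.0198). By library the share was 49.999, 48.3, 49.87, 39.95 and 39.1% in the first run and between 52.6 and 53.9% in the second. For the 10 with the most counts the share was 21.2% ± 2.89 against 24.7% ± 0.289 (SD, n = 5 each), which gave p = 0.0159 in the exact permutation test (adjusted p = 0.0265). The TMM scaling factor, a correction for such differences in composition, was 1.19 ± 0.175 in the first run and 0.847 ± 0.0249 in the second (SD, n = 5 each), without overlap and again at the smallest exact permutation p, 0.00794 (adjusted p = 0.0198). Leaving out single libraries moved some of these calls. The shares of the top 10 and top 100 reached adjusted p = 0.0529 (exact permutation tests) without JM140, without JM142 or without JM143. So did the scaling factor without JM142 or JM143. The top 100 share then differed by -7.904, -7.873 and -7.815 points without JM140, JM142 and JM143, against -7.761 points with all 10 libraries. That difference was no smaller, so these p-values do not show that it rests on any of these libraries. The top 10 share differed by -3.499, -3.546 and -3.45 points without JM140, JM142 and JM143, against -3.54 with all 10 libraries. The scaling factor differed by 0.3384 without JM142 and 0.3417 without JM143, against 0.3446. These differences were thus slightly smaller in all but 1 case. Total counts passed the threshold without JM135 or JM141 (exact permutation tests, adjusted p = 0.0397 in both), and genes detected did so without JM134 (adjusted p = 0.0496).

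Libraries JM135 and JM136 stood apart within the first run. Their scaling factors were 1.39 and 1.37, against 1.04 to 1.11 in libraries JM132 to JM134, and their 10 most abundant transcripts held 17.6 and 18.7% of the counts, against 22.4 to 24.5%. In a principal component analysis of log2 CPM (counts per M counts) over the 10 libraries, the first component, with 47.4% of the variance, separated the runs. Its scores were 20.8, 51.3, 29.2, 89.9 and 94.2 for libraries JM132 to JM136, and from -64.9 to -41.0 for the second run. The second component, with 21.0% of the variance, ran within the first run, from -77.4 in library JM132 to 49.3 in library JM135. Across the 16157 genes tested, Pearson's r of log2 CPM between libraries of the second run was 0.959 to 0.964 over 10 pairs. In the first run it was 0.954 to 0.965 among libraries JM132 to JM134, 0.966 between JM135 and JM136, and 0.879 to 0.937 between these subsets. Between the runs it was 0.847 to 0.921 over 25 pairs. These coefficients are across genes within pairs of libraries and carry no test. Results that follow are given with and without libraries JM135 and JM136 where that bears on them.

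**Figure D1:**
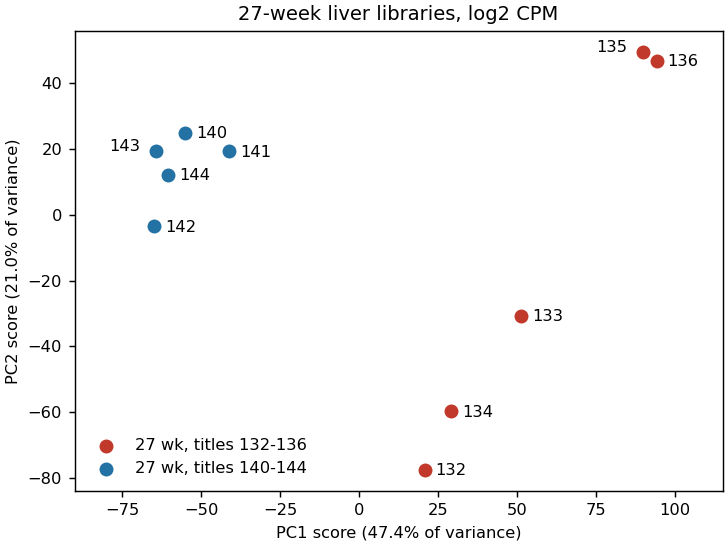
Scores of the 10 liver libraries at 27 weeks on the first 2 principal components of log2 CPM, with the share of variance on each axis and 1 point per library, labelled by title number. The first run (JM132 to JM136) lies to the right of the second (JM140 to JM144) on the first component, and JM135 and JM136 lie apart from JM132 to JM134 on the second.

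Between the runs 7438 of 16157 genes tested (46%) differed at an adjusted p under 0.05 in edgeR's quasi-likelihood test. In the first run 4191 genes were higher (25.9% of those tested) and 3247 lower (20.1%). All 5 libraries of the first run lay above all 5 of the second for 2824 genes (17.5%) and below them for 2339 (14.5%), and 5082 of these 5163 genes were also called. Most differences were moderate. The median fold among called genes was 1.99 for those higher in the first run and 1.95 for those lower. Fewer than 2-fold apart were 2120 of the higher and 1716 of the lower genes, while 1581 and 1197 were 2- to 4-fold apart and most of the rest 4- to 8-fold. Beyond 8-fold the counts were 82 and 58 up to 16-fold, 13 and 11 up to 32-fold, and 3 and 4 above that. Without libraries JM135 and JM136, 6655 genes were called, of which 5738 were also called with all 10 libraries.

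Tested against a bound of 2-fold in place of 0, 427 genes were higher in the first run (2.64% of those tested) and 447 lower (2.77%). These 874 genes had a median of 8.78 CPM in the higher and 15.4 CPM in the lower set. The median over all genes tested is not given here. Only as a rough guide to it, all genes tested were divided by length into 5 classes, whose medians ran from 5.39 to 13.4 CPM. Length itself has no bearing on this comparison. Over 1000 CPM were 160 of the 16157 genes tested, and 1 of the higher and 6 of the lower set. The median folds of the higher and the lower set were 3.74 and 4.42. The libraries of the runs did not overlap for 425 of the 427 and 442 of the 447. Every one of the 874 was called in the same direction under TMM, median-of-ratios, upper-quartile and library-total scaling, and every one was called with the same sign without libraries JM135 and JM136. The sets were chosen on this contrast, so these counts describe them and do not test them.

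The identifier with the largest rise, Nfu_g_1_007386, had 1063, 1084, 670.4, 1449 and 754.3 CPM in libraries JM132 to JM136 and 4.49, 24.5, 3.88, 2.08 and 3.28 CPM in libraries JM140 to JM144. Every library of the first run was far above the highest of the second. The means were 1004 ± 308.9 and 7.65 ± 9.47 CPM (SD, n = 5 each), and the log2 difference was 7.09 ± 0.80 (SE; edgeR adjusted p = 9.94e-05). Counts behind these levels ran from 23252 to 62595 in the first run and from 51 to 753 in the second, so the low levels were well above detection. In the 9-week livers it ran from 0.446 to 9.72 CPM with exercise and from 0.783 to 6.51 CPM without, so that the second run lay near the younger livers and the first run did not. With all 20 libraries in one edgeR fit, the log2 difference from the exercised 9-week livers was 8.05 for the first run (adjusted p = 1.72e-06) and 1.03 for the second (adjusted p = 0.393).

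The other named identifier that was higher, Nfu_g_1_012016, rested in its size on libraries JM135 and JM136. Its levels were 7.63, 49.8, 12.7, 255 and 237 CPM in libraries JM132 to JM136 and 3.64, 7.26, 6.99, 4.68 and 5.42 CPM in libraries JM140 to JM144. Libraries JM135 and JM136 were far above the rest, and library JM132 was only just above the highest of the second run. The log2 difference was 4.43 ± 0.98 (SE; edgeR adjusted p = 0.0044), and without those 2 libraries it was 2.08 (adjusted p = 0.0134). The 9-week livers held between 1.86 and 5.80 CPM. The difference from the exercised ones was 5.37 on the log2 scale for the first run (edgeR adjusted p = 1.03e-05) and 1.04 for the second (adjusted p = 0.318).

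The largest fall was that of Nfu_g_1_011166, with 0.469, 0.619, 0.461, 0.486 and 0.758 CPM in libraries JM132 to JM136 and 69.6, 45.7, 28.8, 47.5 and 45.7 CPM in libraries JM140 to JM144. All 5 libraries of the first run were within a narrow band near 0, from 16 to 39 counts each, while those of the second held 646 to 1814 counts. The means were 0.559 ± 0.129 and 47.4 ± 14.5 CPM (SD, n = 5 each), and the log2 difference was -6.33 ± 0.29 (SE; edgeR adjusted p = 1.84e-06). It was -6.48 without libraries JM135 and JM136. The 9-week livers lay far above the first run, at 18.9 ± 9.21 CPM with exercise and 42.6 ± 12.0 CPM without (SD, n = 5 each). Against the unexercised 9-week livers the log2 difference was -6.23 for the first run (edgeR adjusted p = 1.02e-09) and 0.16 for the second (adjusted p = 0.75). Against the exercised ones it was -5.06 (adjusted p = 1.17e-09) and 1.33 (adjusted p = 0.00303).

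Nfu_g_1_020030 held 6.33, 9.13, 7.29, 0.301 and 0.913 CPM in libraries JM132 to JM136 and 229.7, 204.5, 65.3, 101.7 and 494.4 CPM in libraries JM140 to JM144. Libraries JM135 and JM136 were the lowest of all, and the second run spread widely without reaching down to the first. The log2 difference was -5.50 ± 0.95 (SE; edgeR adjusted p = 0.0011), and -4.84 without libraries JM135 and JM136 (adjusted p = 0.000948). At 9 weeks the level varied as widely, from 28.1 to 626.1 CPM with exercise and from 40.9 to 838.3 CPM without. Against the exercised 9-week livers the log2 difference was -0.47 for the second run (edgeR adjusted p = 0.766) and -5.98 for the first (adjusted p = 0.000111). The 4 identifiers were called in all 19 alternative settings run. They had been picked for large differences among called genes without overlap of the runs and with 1 direction under 4 scalings. Their calls in settings that reuse these libraries were therefore largely fixed by the choice and do not test them.

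**Figure D2:**
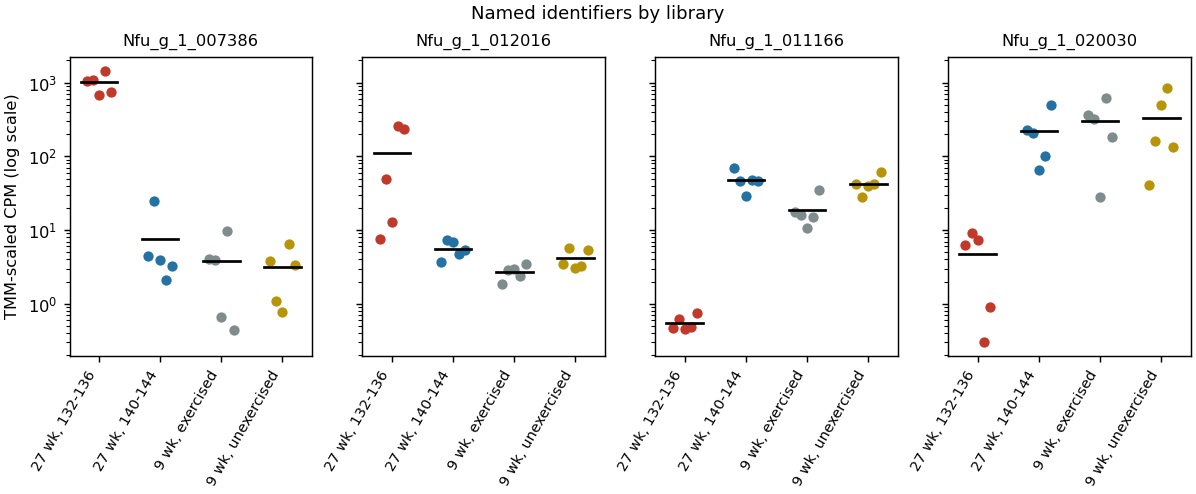
TMM-scaled CPM on a log axis for the 4 named identifiers, with 1 point per library and the groups (the runs at 27 weeks, and exercised and unexercised livers at 9 weeks) side by side. Horizontal lines are group means. The identifiers in the 2 left panels are highest in the first run and those in the 2 right panels lowest there, for example near 0.559 against 47.4 CPM for Nfu_g_1_011166.

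Differences over 32-fold were found for 3 called transcripts that were higher in the first run and 4 that were lower. The 3 included Nfu_g_1_007386, and in the other two the runs overlapped. The more abundant of these, rank 6098 by mean level, reached 40.3 and 87.2 CPM in libraries JM135 and JM136 but only 0.69 to 7.001 CPM in libraries JM132 to JM134, against 0.0775 to 0.976 CPM in the second run. Its fold therefore rested on the 2 libraries that stood apart. None of the 4 lower transcripts overlapped between the runs, as was the case for 5082 of all 7438 called genes. Numbers this small do not set the directions apart. One of them, rank 1741, held 1.84 to 4.19 CPM in the first run and 70.6 to 232 CPM in the second (log2 difference -5.05 ± 0.44 SE; edgeR adjusted p = 3.28e-05). These transcripts were chosen for description after their values were seen.

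The direction of the difference varied with abundance. Among the 160 transcripts with a mean over 1000 CPM, 114 (71.3%) were lower in the first run and 2 were higher, with a median log2 difference of -0.82. From 100 to 1000 CPM, 369 of 796 (46.4%) were lower and 14.8% higher, with a median of -0.49. Below that the balance turned. From 10 to 100 CPM, 2068 of 6551 (31.6%) were higher and 1431 (21.8%) lower, with a median of 0.14, and from 1 to 10 CPM, 1830 of 6824 (26.8%) were higher and 1056 (15.5%) lower, with a median of 0.21. Under 1 CPM, 173 of 1826 were higher and 277 lower. Over all genes tested 25.9% were higher and 20.1% lower, with a median of 0.11. In the share lower, the classes over 100 CPM lay farthest from these values. From 1 to 10 CPM the share higher was near that of all genes, and the share lower was below it. Without libraries JM135 and JM136, 112 of the transcripts over 1000 CPM were lower and 3 higher, with a median of -0.68, and from 100 to 1000 CPM the median was -0.36. The rises further down were then smaller. From 10 to 100 CPM 1866 genes were higher and 1402 lower, with a median of 0.06, and from 1 to 10 CPM 1381 were higher and 1043 lower, with a median of 0.05, so that these classes also changed places.

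Part of this balance depends on how the libraries are scaled. With library totals alone, which leave the composition of the libraries in the values, the median over all genes was 0.60 and 84.6% of called genes were higher in the first run, against 56.4% with TMM. With upper-quartile scaling the median was -0.0004 and the share 48.5%, and with the median-of-ratios factors 0.04 and 51.5%. Against the shifted median, the order of the classes was kept. With library totals the median was -0.34 over 1000 CPM, with 83 transcripts lower and 4 higher, -0.02 from 100 to 1000 CPM, where the called genes divided into 224 higher and 211 lower, and 0.63 and 0.72 in the next 2 classes. Under 1 CPM the sign turned, from -0.14 with TMM to 0.35. With upper-quartile scaling the class from 10 to 100 CPM was nearly balanced, with 1713 higher and 1661 lower and a median of 0.03. From 1 to 10 CPM 1549 were then higher and 1239 lower (median 0.11). With median-of-ratios factors the class from 10 to 100 CPM had 1845 higher and 1567 lower (median 0.07).

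**Figure D3:**
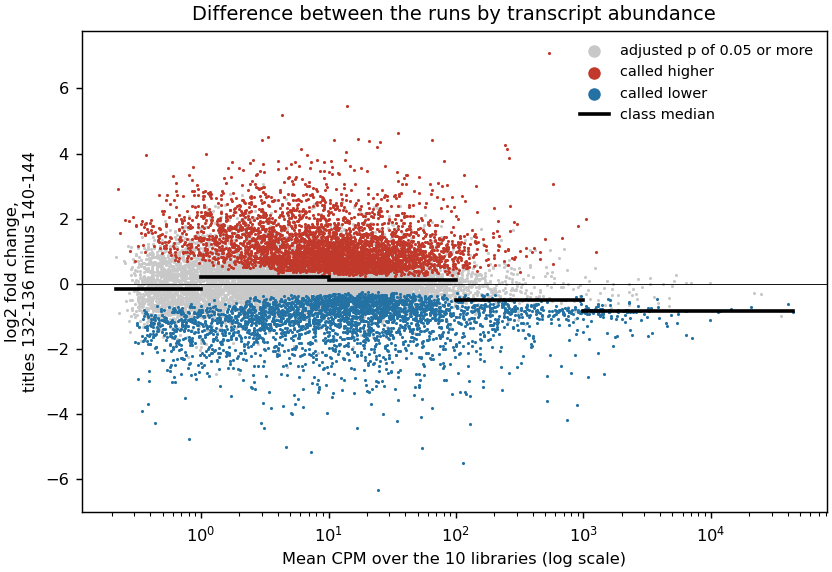
Log2 difference of each gene tested, first run minus second, against its mean level in CPM on a log axis. Called genes are coloured by direction, and black bars are class medians. The cloud bends below 0 on the right, where 114 of the 160 transcripts over 1000 CPM were lower in the first run.

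Shares of counts, which amount to scaling by library totals, moved from the most abundant transcripts to those below 100 CPM. Transcripts over 1000 CPM held 55.6, 54.3, 55.7, 44.7 and 44.4% of the counts in libraries JM132 to JM136 and 60.01 to 61.1% in the second run, with no overlap. Those from 10 to 100 CPM held 19.6, 21.0, 20.0, 28.0 and 28.4% against 15.2 to 16.02%. Those from 1 to 10 CPM held 3.03 to 5.20% against 2.27 to 2.54%. Under 1 CPM the share was 0.210% ± 0.0658 against 0.150% ± 0.0116 (SD, n = 5 each), with overlap. The TMM-scaled median of the genes tested in this class was lower in the first run. Shares were taken over all 26739 identifiers and medians over the 16157 genes tested, so the gene sets differ as well as the scaling. The share of the class from 100 to 1000 CPM was 21.5% ± 0.357 and 21.4% ± 0.164 (SD, n = 5 each), a difference within the spread of the libraries, while its TMM-scaled median was lower in the first run. Libraries JM135 and JM136 were the farthest from the second run in the classes over 1000 CPM and from 10 to 100 CPM, and libraries JM132 to JM134 were displaced in the same direction.

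**Figure D4:**
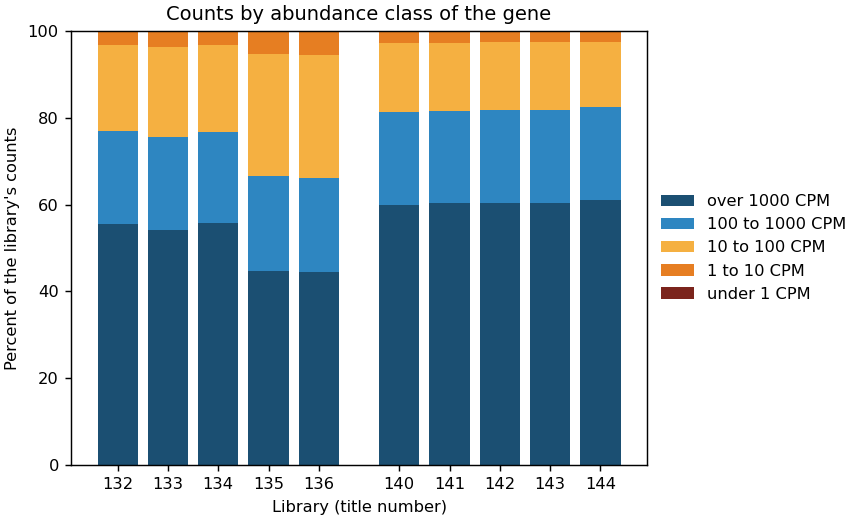
Percent of each library's counts held by transcripts of 5 abundance classes, as stacked bars from 0 to 100%, with 1 bar per library. The class over 1000 CPM holds 44.4 to 55.7% in the first run and 60.01 to 61.1% in the second, and the class under 1 CPM is too thin to see.

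Of the 10 most abundant transcripts, 7 were called lower in the first run, and all 10 had negative log2 differences, from -1.10 to -0.28. Over all genes tested 20.1% were lower, and over 1000 CPM 71.3% were. The 7 of 10 were thus near the share of their abundance class and do not set these 10 apart from it. The most abundant of all held 35749, 33088, 41660, 23345 and 21029 CPM in libraries JM132 to JM136 and 54555, 55543, 56695, 66154 and 51255 CPM in libraries JM140 to JM144. The runs did not overlap, and its log2 difference was -0.88 ± 0.20 (SE; edgeR adjusted p = 0.00494). It took 3.57% of the counts in the first run and 4.81% in the second. The second in rank held 30514 to 33033 CPM in the first run and 41740 to 62458 CPM in the second (log2 difference -0.62 ± 0.14 SE; edgeR adjusted p = 0.00465). The first run was tightly grouped in this transcript, libraries JM135 and JM136 included. Ranks 1, 2 and 9 were called whichever single library was left out, while ranks 6, 7, 8 and 10 missed the threshold without 1 or another of JM133, JM135, JM136, JM140, JM142, JM143 and JM144 (edgeR adjusted p up to 0.0846). Rank 3 was not called (-0.98, edgeR adjusted p = 0.0547), although its levels did not overlap between the runs. It was called in 6 of 19 alternative settings, among them without JM134 (edgeR adjusted p = 0.0345) or JM135 (adjusted p = 0.0302). Without both JM135 and JM136, rank 3 was called at a smaller difference (-0.54, edgeR adjusted p = 0.0219). Ranks 6 and 10 were then not called (edgeR adjusted p = 0.0709 and 0.0818). When scaled by library totals, only rank 1 of the 7 was called (-0.43, edgeR adjusted p = 0.0155). Rank 2 was at -0.13 (edgeR adjusted p = 0.465), and ranks 6 to 10 were between -0.69 and -0.27 (adjusted p from 0.0612 to 0.178). Ranks 4 and 5 turned positive, at 0.12 and 0.15, neither of them called under either scaling. Rank 5 was also positive without libraries JM135 and JM136, at 0.072. Of the transcripts over 1000 CPM 2 were higher in the first run. The one of rank 152 held 1180 to 2430 CPM against 263.2 to 752.6 CPM (log2 difference 1.99 ± 0.32 SE; edgeR adjusted p = 0.00074), and the one of rank 129 held 1248 to 2528 CPM against 464.1 to 1337 CPM, where the runs overlapped (0.98 ± 0.29 SE; edgeR adjusted p = 0.0177).

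More genes separated the first run from the 9-week livers than the second. In one edgeR fit of all 20 libraries, 9936 of 17118 genes (58%) differed between the first run and the exercised 9-week livers and 2910 (17%) between the second run and the same livers. Against the unexercised 9-week livers the counts were 8790 (51.3%) for the first run and 2529 (14.8%) for the second. These comparisons share libraries, so the counts stand side by side and their difference was not tested. Pearson's r of log2 CPM with the exercised 9-week livers had a median of 0.878 for libraries of the first run and 0.941 for those of the second, and with the unexercised ones 0.887 and 0.942. Shares of counts placed the runs differently. The top 10 held 15.997 to 22.778% at 9 weeks, below every library of the second run (24.3 to 25.1%). In the first run only JM134 (24.5%) lay above that range. For the top 100 the 9-week range was 44.454 to 53.617%. Libraries JM132 to JM134 lay inside it, JM135 and JM136 below, and JM141 and JM144 above. These shares were not tested against the 9-week livers.

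The 427 transcripts higher in the first run by the 2-fold bound had a median log2 difference of 2.16 from the exercised 9-week livers in the first run and 0.31 in the second. Of these, 422 were called higher and 0 lower in the first run, and 108 higher and 14 lower in the second. These are 98.8 and 0% in the first run and 25.3 and 3.28% in the second, and over all genes tested between the runs the shares were 31.3 and 28.1%, and 9.93 and 7.81%. From the unexercised 9-week livers the medians were 1.57 and -0.20, with 394 called higher and 0 lower, and with 18 higher and 88 lower, or 4.22 and 20.6%, in the second. Over all genes 27.7% were higher and 25% lower than the unexercised livers in the first run, and 7.84 and 7.43% in the second. The 447 transcripts lower in the first run had medians of -2.12 and 0.06 from the exercised livers, with 0 called higher and 426 lower in the first run and 67 higher and 42 lower (15 and 9.40%) in the second. From the unexercised livers their medians were -1.97 and 0.24, with 420 called lower in the first run, and with 89 higher and 21 lower (19.9 and 4.70%) in the second. Both sets were chosen on the difference between the runs, so a distance of one run or the other from the younger livers was fixed by the choice, and on which side it fell was not. The medians over all genes tested in these 4 comparisons lay between -0.02 and 0.02. With library totals they moved to 0.52 and -0.05 against the exercised and to 0.27 and -0.32 against the unexercised livers, and the lower set's median against the unexercised livers turned from 0.24 to -0.05 in the second run.

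Library by library, the median of the higher set, relative to each gene's mean over the 20 libraries, was 1.45, 1.396, 1.55, 1.15 and 1.36 on the log2 scale in libraries JM132 to JM136. It was from -0.55 to -0.28 in the second run, from -0.81 to -0.67 in the exercised and from -0.35 to 0.08 in the unexercised 9-week livers. The lower set stood at -1.39, -1.51, -1.31, -1.61 and -1.64 in the first run and between 0.09 and 0.74 in all other libraries. JM135 and JM136 were the lowest of the first run in both sets, by little beside the distance to the second run. For the 100 most abundant transcripts they lay well apart, with -0.28, -0.39 and -0.22 in libraries JM132 to JM134 and -0.93 and -0.96 in JM135 and JM136, against 0.17 to 0.38 in the second run and -0.23 to 0.35 at 9 weeks. From the unexercised livers these 100 had a median of -0.53 in the first run, with 7 called higher and 49 lower. Over all genes tested between the runs, 27.7% were higher and 25% lower. In the second run the median was 0.32, but 0.04 with library totals. There 24 of the 100 were called higher and 1 lower, beside 7.84 and 7.43% over all genes. These 100 had been chosen by mean level over the libraries of both runs, without the 9-week livers. That choice can favour calls of higher against the 9-week livers, exercised or not. The counts of this set beside those of all genes therefore describe it and do not test it. From the exercised livers the medians were -0.86 and -0.01. The first run had 4 called higher and 63 lower, beside 31.3 and 28.1% over all genes. The second run had 6 higher and 2 lower, beside 9.93 and 7.81%.

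**Figure D5:**
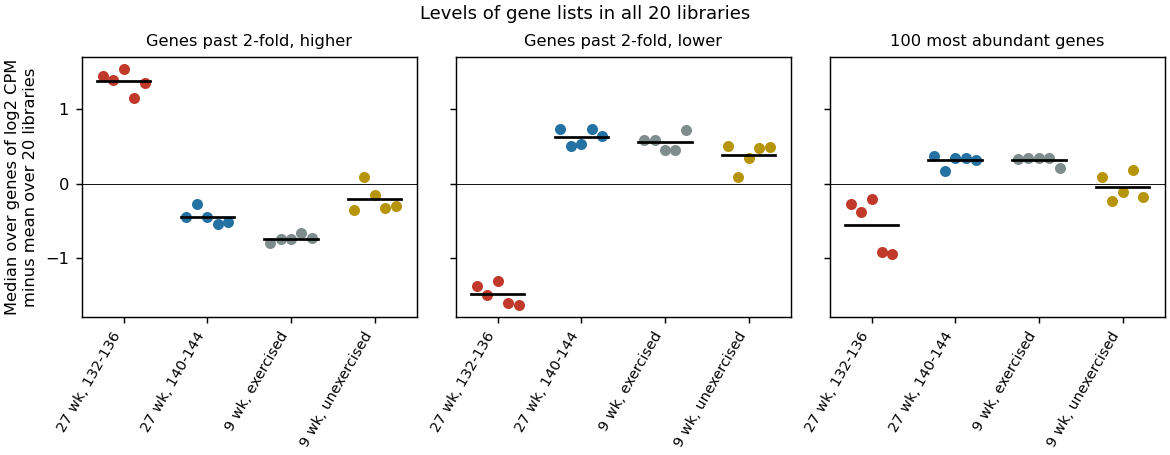
Median log2 level, relative to each gene's mean over the 20 libraries, of the 427 higher and 447 lower transcripts and of the 100 most abundant ones, with 1 point per library in 4 groups and a horizontal line at each group's mean. The first run lies apart from the other 3 groups in the first 2 sets, at 1.15 to 1.55 and at -1.64 to -1.31, and libraries JM135 and JM136 lie lowest for the most abundant transcripts.

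The difference also varied with gene length, which could be derived for 16127 of the genes tested (99.8%) from the deposited counts and RPKM together. Among the shortest of 5 equal classes, 18 to 1170 bp, 28.4% of genes were higher in the first run and 18.5% lower, with a median log2 difference of 0.15. Among the longest, 5485 to 88535 bp, 19.5% were higher and 23.8% lower, with a median of -0.03. The sign of this last median was not stable, at 0.0076 without JM134 and 0.02 without a filter on low counts. In the classes between, 27.5, 27.7 and 26.8% were higher, so most of the drop lay in the longest class. Over all genes tested 25.9% were higher and 20.1% lower. The longest class lay farthest from these shares, and the other classes, the shortest included, lay near them. The longest genes also had the lowest share of rises within abundance classes below 100 CPM. From 10 to 100 CPM 36.4, 34.5, 36.7, 31.35 and 23.4% were higher, from the shortest to the longest class. From 1 to 10 CPM the shares were 31.3, 29.1, 26.1, 27.5 and 17.2%. From 100 to 1000 CPM the order was the opposite, with 6.38% of the shortest and 24.2% of the longest higher, and 57.5 and 39.2% lower. With library totals the medians of the shortest and the longest class were both positive, at 0.64 and 0.47, and with upper-quartile scaling they were 0.04 and -0.13. Without libraries JM135 and JM136 they were 0.08 and -0.13.

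No transcript was absent from one run and present at 10 or more counts throughout the other. That is, not one identifier had 0 counts in all 5 libraries of a run and at least 10 in each library of the other. Transcripts absent from one run and present at fewer counts throughout the other were not counted separately. Of 26739 identifiers, 17627 had counts in every library of both runs and 4504 had none in any of the 10. Another 819 had counts in every library of the first run but not in every library of the second, and 544 the reverse. These numbers were not adjusted for depth, which averaged 35.3 M counts in the first run and 29.0 M in the second.

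The libraries of the first run also varied more among themselves. The median SD of log2 CPM over 5 libraries was 0.36 in the first run and 0.31 in the second, and 57.4% of genes had the larger SD in the first. The gap was widest at the top, with 0.35 against 0.17 over 1000 CPM, where 70.6% of transcripts varied more in the first run, and with 0.42 against 0.21 for the 100 most abundant. From 10 to 100 CPM the medians were 0.27 and 0.24. Between single libraries of the first run the median absolute log2 difference over all genes was 0.246 to 0.265 among JM132 to JM134 and 0.249 between JM135 and JM136, but 0.383 to 0.505 across these subsets. In the second run it was 0.279 to 0.356. These values carry no test.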

How the data were processed

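Liver RNA was made into libraries with a TruSeq RNA v2 kit, per the labels' protocols. The authors deposited raw counts for 26739 identifiers, and the submitters' processing notes name featureCounts 1.4.6-p4, bcl2fastq 1.8.4 and STAR 2.4.1d. Not given in the sources used here were build, strandedness and the handling of multi-mapping reads. Values of genes with near-identical copies or overlapping neighbours are uncertain for that reason. A second table, deposited by the authors as RPKM, is treated as a score with its own scaling, because its library totals were cycled down the rows. It served only to derive gene lengths. In the 3127 genes checked, the derived length varied across libraries by a CV of at most 0.00475%. No identifier matched the RefSeq gene table (assembly NfurGRZ-RIMD1).

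The counts of the 10 libraries at 27 weeks were filtered with filterByExpr and tested with edgeR 4.0.16 (R 4.3.3): TMM scaling, robust quasi-likelihood fit, first run minus second, two-sided, Benjamini-Hochberg adjustment over 16157 genes and a threshold of 0.05. The 2-fold bound was tested with glmTreat on that fit. Levels beside the 9-week livers came from one fit of all 20 libraries in 4 groups, and CPM of named identifiers carry its scaling. Other levels carry the scaling of the 10 libraries. Log2 CPM has a prior count of 2. Standard errors were derived from the F statistic. Exact permutation tests served for library measures, adjusted over 5 tests. The code was tested on simulated data with known changes.

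Alternatives were other scalings, filters, DESeq2 1.42.0, limma 3.58.1 (voom with sample weights), the 4-group fit, and fits without each library or without JM135 and JM136. The identifiers named are the 2 with the largest rise and the 2 with the largest fall among called genes of at least 10 CPM on average, without overlap of the runs and with 1 direction under 4 scalings. The comparison, its members and its lists were chosen with earlier results of these data known. All 20 pairs of libraries within a run differed by more than counting noise, with a chi-square per degree of freedom of at least 58.9.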

Additional observations from a re-analysis of the deposited data

Results flagged for a closer look

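One value stood outside its group by Dixon's test at the 95% level. Nfu_g_1_007386 had 24.5 CPM in library JM141, against 2.08 to 4.49 CPM in the other libraries of the second run, and the lowest library of the first run was at 670.4 CPM. Of 50 groups of values examined 1 was set apart in this way, and chance alone gives about 1 in 20.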

How the results depend on the processing

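The count of genes called was within 1.5 times of 7438 in every alternative run, from 6259 to 7442 when single libraries were left out. Library totals in place of TMM gave 7468 genes higher and 1359 lower (84.6% higher), 1840 past the 2-fold bound, 3276 higher from 1 to 10 CPM, a median of -0.34 for the 100 most abundant genes, and medians of 0.64 and 0.47 for the shortest and longest genes. Abundance ranks 4 and 5 turned to 0.12 and 0.15, and rank 5 to 0.072 without libraries JM135 and JM136. With upper-quartile scaling 48.5% of called genes were higher, and the longest genes had a median of -0.13, as they did (-0.13) without libraries JM135 and JM136. It turned to 0.0076 without JM134 and to 0.02 without a filter. The median of the shortest genes was 0.0804 with median-of-ratios factors, 0.0433 with upper quartiles, 0.19 without a filter, 0.0809 with DESeq2, 0.12 with limma-voom, 0.10 in the 4-group fit and 0.0847 without libraries JM135 and JM136. Past the 2-fold bound were 874 genes, 606 with DESeq2, 694 with limma-voom, 1164 in the 4-group fit, and 588 to 921 with single libraries left out. Without single libraries the first minus the second run differed by 3.97 to 8.07 M counts, 189.8 to 386 genes detected, 0.295 to 0.383 in TMM factor, -4.36 to -2.64 points in the share of the top 10 and -8.90 to -6.18 points in that of the top 100 genes. Adjusted p values of the last 3 in exact permutation tests then reached 0.0529. The cause of these changes was not tested. No paired analysis was possible because the runs share no replicate numbers in the labels. A floor of 10 counts for the fold of transcripts absent from one run had nothing to apply to. None of them held 10 or more counts throughout the other run. Precision was lowest under 1 CPM, where the median SD of log2 CPM was 0.58 in the first and 0.54 in the second run.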
